A study of Mus musculus with 4 samples.

Results

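Low-contractile basal cells were mammary epithelial cells that carried RNA of the basal keratin Krt14 but little or no RNA of 3 smooth muscle contractile genes. They were chosen from the counts of each single cell, expressed as CPM (UMIs of a gene scaled to a total of 1000000 gene UMIs), where a UMI, or unique molecular identifier, marks 1 captured RNA molecule. A cell was taken if it had 1000 to 6000 detected genes and under 5% of its UMIs on mitochondrial genes. It also had to hold at least 500 CPM of Krt14, under 300 CPM of Areg, under 300 CPM of Krt16, Krt6b, Krtdap and Sprr1b together, under 100 CPM of Cenpf, Ccnb2, Cdc20 and Birc5 together, and under 200 CPM of Acta2, Cnn1 and Myh11 together. These limits took out hormone receptor-positive, keratinizing and mitotic cells, and left 1307 cells of 33268 in all, or of 17360 within the limits on genes and mitochondrial UMIs. Basal cells under the same limits but with at least 500 CPM of the 3 contractile genes, called contractile basal cells here, numbered 272. Another 49 basal cells lay between both limits, and 12679 hormone receptor-negative (HR-) luminal cells, with under 300 CPM of Krt14 and of Areg, served as the second comparison.

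The cells came from mouse mammary organoids, 3-dimensional cultures grown in Matrigel from single mammary cells of wild-type mice or of littermates with a germline truncating mutation in 1 Brca2 allele (Brca2mut/WT). Treated organoids received 1 mM hydroxyurea (HU), an inhibitor of ribonucleotide reductase that stalls replication, for 24 h from day 5 or 6 of culture, recovered and were passaged, and the exposure was repeated at each passage, while controls had none. Organoids frozen at passage 0 and passage 4 were thawed and grown for 3 days before they were dissociated for sequencing, so the last HU exposure came before freezing. By this design, treated organoids of passage 0 had 1 exposure and those of passage 4 repeated ones. The cells of a library could not be told apart by passage here. The 4 droplet libraries were wild-type control, wild-type HU, Brca2mut/WT control and Brca2mut/WT HU, with 1 library per condition, and values are given in this order throughout. Each library pooled samples marked with 4 antibody tags, and the tags were not tied to mice or passages in the sources used here. The mice of the repeated HU experiment were 9 to 11 months old, with 3 mice for each condition and passage, while the labels name 2 replicates per library. The virgin female donors, the Matrigel culture and the thawing were common to all 4 libraries. In Brca2mut/WT cells the mutation was present in every cell type.

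Basal cells form the outer layer of the mammary epithelium, next to the basement membrane, and express keratins 5 and 14 and the transcription factor p63. In the gland most of them are myoepithelial cells, which carry smooth muscle actin and myosin and contract to eject milk. They also deposit matrix proteins such as laminins and collagen IV and secrete signals that act on the luminal cells inside. Basal cells are known for their plasticity in transplantation and culture, where they can take on other states of the epithelium.

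Low-contractile basal cells numbered 435, 488, 208 and 176 in the 4 libraries, against 61, 112, 38 and 61 contractile basal cells. They made up 85.6% of the basal cells in the wild-type control (exact Clopper-Pearson 95% interval 82.3 to 88.6), 83.5% in the Brca2mut/WT control (78.3 to 87.9), 78.7% in wild-type HU (75.3 to 81.9) and 70.1% in Brca2mut/WT HU (64.0 to 75.7). Their share was thus lower in the HU library by 6.92 percentage points in the wild type and by 13.4 points in Brca2mut/WT, and neither pair of intervals overlapped. The intervals did overlap in Brca2mut/WT with Krt14 from 1000 CPM (78.3 to 89.1 in the control and 67.9 to 81.7 in HU) and in the wild type for cells of at least 10000 UMIs (80.8 to 87.8 and 75.6 to 82.5) or with 1 antibody tag (81.4 to 88.2 and 75.7 to 82.5). Intervals cover counting error only. Over both genotypes, the 2 HU libraries had a mean share of 74.4% against 84.6% in the 2 controls, with a two-sided exact permutation p of 0.333, the smallest that 2 against 2 libraries allow. This test could not have called a difference and left the pairing by genotype aside, so nothing is read from it. When each cell was thinned to 5000 UMIs, the shares were 82.8%, 75.04%, 82.9% and 63.2%. Of all cells within the limits, low-contractile basal cells were 8.19%, 10.6%, 5.03% and 5.34% and contractile basal cells 1.15%, 2.43%, 0.918% and 1.85%. Low-contractile basal cells were thus not a smaller part of all these cells in HU than in control, and contractile basal cells were a larger one in both genotypes, with separate exact intervals (0.879 to 1.47 and 2.00 to 2.91 in the wild type, 0.651 to 1.26 and 1.42 to 2.37 in Brca2mut/WT).

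**Figure D1:**
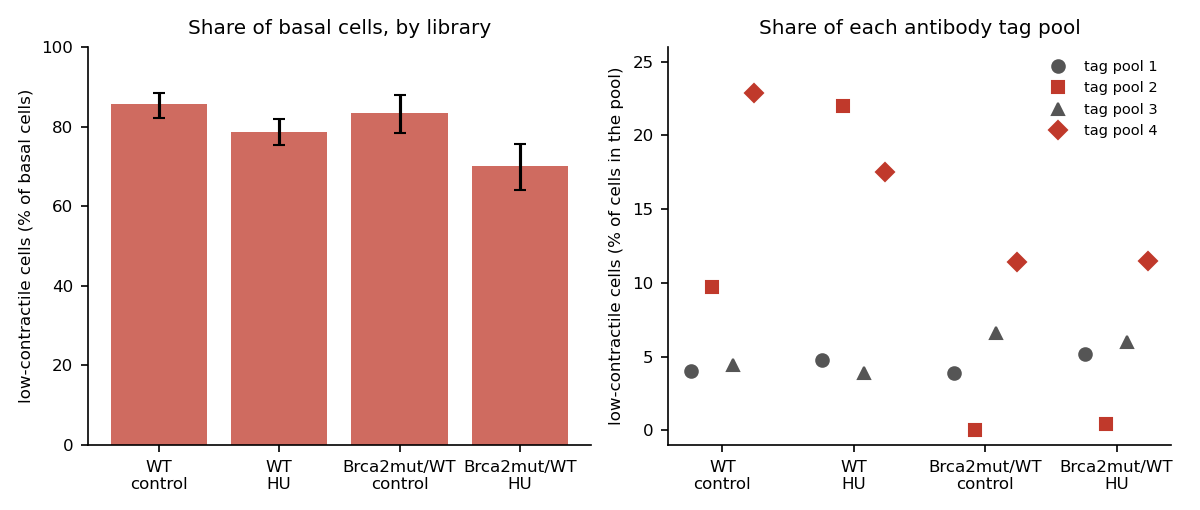
Bars give the percentage of basal cells (Krt14 at least 500 CPM) that had under 200 CPM of Acta2, Cnn1 and Myh11 together in each of the 4 libraries, with exact Clopper-Pearson 95% intervals that cover counting error only. The HU library stood below its control in both genotypes, 78.7% against 85.6% and 70.1% against 83.5%.

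The contractile sum that chose the cells was 0 in 1085 of the 1307 cells (83.0%), with 20 cells between 150 and 200 CPM, just inside the limit, and 8 between 200 and 250 CPM, just outside. Krt14 had a median of 3951 CPM over the cells and ranged from 500.1 to 44632 CPM, with library medians of 3477, 5673, 2433 and 2357 CPM. In contractile basal cells the library medians were lower, at 1322, 2114, 1454 and 1196 CPM, so both basal classes also differed in Krt14. The Krt14 limit did cut through a continuum, with 81 cells from 500 to 600 CPM and 105 cells from 400 to 500 CPM outside it. Depth was similar between both basal classes, with median UMIs per cell of 20591, 20367.5, 19084 and 21329 in low-contractile and 19861, 20758, 21345 and 21193 in contractile basal cells. The summed cells held 9087966, 10143764, 4221923 and 3815623 gene UMIs, and the contractile basal cells 1394165, 2384284, 823359 and 1370275. There were 129 cell barcodes shared by 2 or more libraries, of which 11 low-contractile basal cells carried one.

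The basal identity of the cells was checked with genes that the limits did not use. Krt5, the keratin partner of Krt14, was measured at 2449.6, 2234, 1685 and 1886 CPM in low-contractile basal cells and at 33.8, 27.9, 14.1 and 19.3 CPM in HR- luminal cells (log2 fold 6.35, SE 0.24, adjusted p = 3.83e-07). Trp63, which encodes p63, stood at 57.7, 56.6, 69.2 and 76.3 CPM against 11.1, 9.02, 9.57 and 9.46 CPM (log2 fold 2.57, SE 0.10, adjusted p = 1.54e-12). For both genes every library of low-contractile basal cells lay above every HR- luminal library, which held for 37.2% of all 12249 genes tested. The luminal side was less clear cut, since Krt8 and Krt18 together reached 1000 CPM in 562 of the 1307 cells (43.0%), against 65 of 272 contractile basal cells (23.9%) and 92.5% of HR- luminal cells. Cells without a single dominant antibody tag, which include mixed droplets, were 12.6%, 5.94%, 5.29% and 11.9% of low-contractile basal cells and 4.31%, 4.12%, 7.74% and 7.46% of HR- luminal cells. Among contractile basal cells they were 4.92%, 7.14%, 7.89% and 6.56%. The part of mixed droplets in the luminal keratin signal was not tested.

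Fold changes and adjusted p-values come from edgeR's quasi-likelihood test with Benjamini-Hochberg adjustment, on UMI sums per class and library with the library as a block, and a gene was called at an adjusted p under 0.05 and a fold of at least 1.5. Both classes were chosen from the expression of the same cells, so such a p says only that a difference recurred across the 4 libraries. Cells could not be assigned to mice within a library, so the spread is that between libraries and not between animals.

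The 5 genes put forward as markers of these cells, Cxcl12, Sparc, Col4a1, Col4a2 and Peg3, did not mark them against contractile basal cells. Sparc, which encodes a collagen-binding matrix glycoprotein, was found at 464, 401, 493 and 532 CPM, against 1409, 1398, 1703 and 1538 CPM in contractile basal cells (log2 fold -1.73, SE 0.07, adjusted p = 2.76e-10). Cxcl12, which encodes a chemokine, stood at 16.6, 12.9, 28.2 and 21.8 CPM against 68.1, 62.5, 68.0 and 128 CPM (log2 fold -2.12, SE 0.22, adjusted p = 0.000115). Col4a1, a collagen IV chain of the basement membrane, was measured at 25.1, 31.8, 44.5 and 80.7 CPM against 181, 154, 429 and 319 CPM (log2 fold -2.64, SE 0.30, adjusted p = 0.00132). In each of these genes all 4 libraries of low-contractile basal cells lay below all 4 of contractile basal cells. Col4a2, the partner chain, stood lower in the same way, at 24.6, 23.4, 38.8 and 59.5 CPM against 123, 109, 216 and 185 CPM (log2 fold -2.20, SE 0.24, adjusted p = 0.000454). It lies next to Col4a1 on the opposite strand, at chr8:11312805-11449287, plus strand, and Col4a1 at chr8:11198423-11312826, minus strand, in GRCm38 coordinates.

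Peg3, an imprinted zinc finger gene, was near the detection limit at 4.84, 1.97, 4.97 and 9.70 CPM and was not called against contractile basal cells (log2 fold -0.21, adjusted p = 0.845). Peg3 was lower than in HR- luminal cells (log2 fold -0.81, adjusted p = 0.0353), a call lost under 9 alternatives, among them without the wild-type control (-0.74), without wild-type HU (-0.48) and without the Brca2mut/WT control (-0.89). Against HR- luminal cells, Sparc was the only one of the 5 genes that was higher (log2 fold 2.14, SE 0.07, adjusted p = 2.54e-13), with 91.0, 90.8, 89.0 and 118 CPM in the luminal cells. Cxcl12 was lower than in HR- luminal cells, which held 41.7, 41.7, 40.1 and 56.9 CPM (log2 fold -1.38, SE 0.18, adjusted p = 0.0001). Its level in low-contractile basal cells differed along Krt14, over cells of all libraries and tag pools. It was 59.1 CPM in the 262 cells with 500 to 1000 CPM of Krt14, 20.1 CPM in the 465 with 1000 to 5000 and 3.66 CPM in the 580 with at least 5000. The cells nearest the Krt14 limit were thus not lower than HR- luminal cells. Col4a1 (log2 fold -0.48, adjusted p = 0.172) and Col4a2 (log2 fold -0.13, adjusted p = 0.627) were not called there. Both varied along the same bands of Krt14 as Cxcl12, Col4a1 at 88.5, 46.2 and 18.1 CPM and Col4a2 at 65.0, 39.3 and 15.7 CPM, and Peg3 read 11.4, 7.12 and 0.647 CPM. All 4 genes were thus lowest in the cells with the most Krt14. With each cell thinned to 5000 UMIs, Cxcl12 was detected in 6.09, 4.53, 6.63 and 8.75% of low-contractile, 21.3, 25.7, 21.1 and 32.8% of contractile basal and 11.9, 11.8, 9.71 and 12.7% of HR- luminal cells. The call of Cxcl12 was lost in both comparisons on tag pools 2 and 4 alone (unlabelled pools of cells within each library), at log2 folds of -2.13 and -1.10. The cells are therefore named here by the limits that chose them and not by these genes.

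Across the 12249 genes tested against contractile basal cells, 600 were higher in low-contractile basal cells (4.90%) and 886 were lower (7.23%), with a median log2 fold of 0.02 over all genes. All libraries of one class lay above all of the other for 10.9% of genes in the higher and 8.47% in the lower direction. The plot of gene lists sets the members of each list beside this background.

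**Figure D2:**
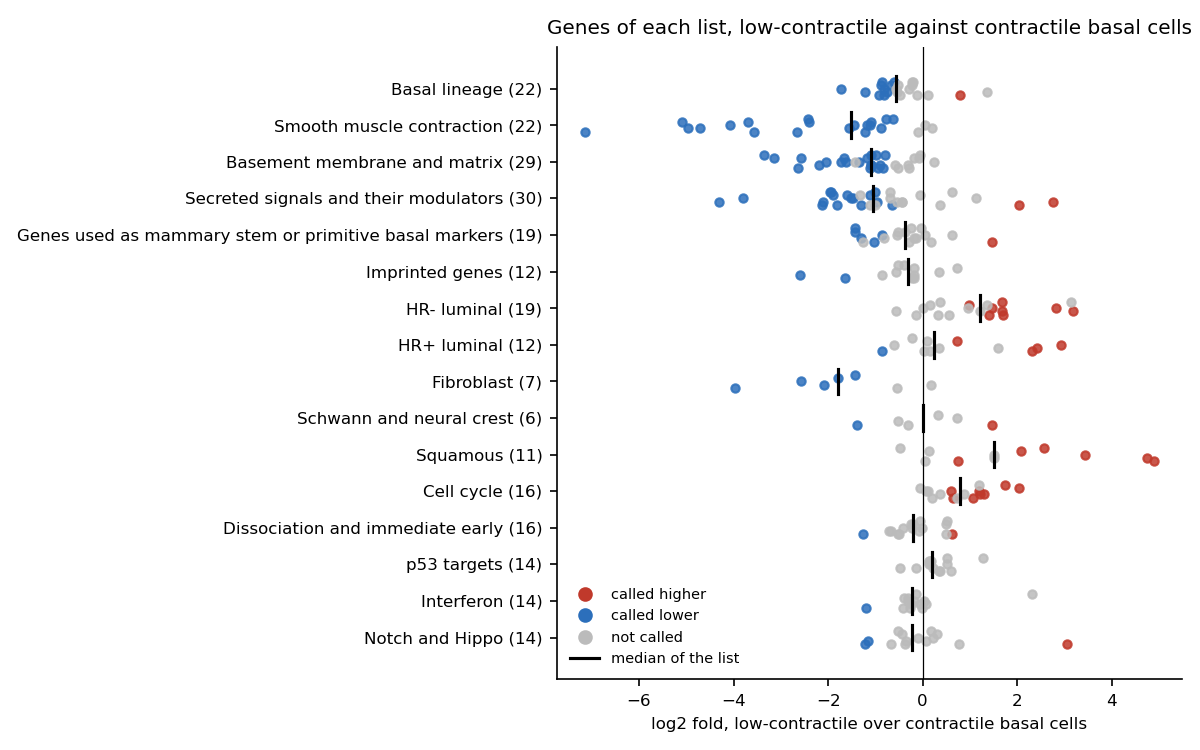
Each point is 1 tested gene of a list, with its log2 fold change in low-contractile basal cells against contractile basal cells, for lists with at least 6 tested genes. Smooth muscle, matrix and secreted-signal genes lay mostly below 0 against contractile basal cells, with list medians of -1.51, -1.09 and -1.06, and the HR- luminal list lay mostly above 0 there, with a median of 1.21.

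Smooth muscle genes that the limits did not use were lower together with the 3 that chose the cells. Of 26 such genes, 22 could be tested, and 19 were lower and 0 higher than in contractile basal cells, with a median log2 fold of -1.51. Those not called were Ppp1r12b, Mrtfa and Mrtfb, and those too low to test were Actg2, Des, Pln and Myocd. Tagln, which encodes the actin-binding protein transgelin, stood at 10.3, 4.14, 17.8 and 23.1 CPM against 1442, 1665, 2428 and 1128 CPM in contractile basal cells (log2 fold -7.13, SE 0.48, adjusted p = 0.000113). Myl9, the regulatory light chain of smooth muscle myosin, was measured at 24.5, 17.4, 35.1 and 21.2 CPM against 644, 671, 944 and 688 CPM (log2 fold -4.96, SE 0.33, adjusted p = 8.27e-05). No low-contractile library came near a contractile one for either gene. The HR- luminal cells held 3.92, 5.22, 5.92 and 7.44 CPM for Tagln and 14.4, 18.9, 15.4 and 30.8 CPM for Myl9, and neither was called in that comparison.

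Mylk, the kinase that activates this light chain, stood at 3.85, 12.03, 3.79 and 6.29 CPM against 57.4, 139, 158 and 101 CPM (log2 fold -4.07, SE 0.37, adjusted p = 0.000234). Tpm2, a tropomyosin, differed less and kept a clear level, at 489, 488, 556 and 543 CPM against 2475, 2491, 3143 and 2669 CPM (log2 fold -2.42, SE 0.09, adjusted p = 1.26e-09). Its level was still above that of HR- luminal cells, at 110.1, 118, 98.7 and 121 CPM (log2 fold 2.07, SE 0.08, adjusted p = 9.96e-11). Oxtr, the oxytocin receptor through which milk ejection is triggered, was also lower (log2 fold -2.66, adjusted p = 1.31e-06). Against HR- luminal cells, 7 of the 22 smooth muscle genes were higher and 4 lower, with a background of 18.8% higher and 18.4% lower. Of the 4 lower calls, that of Mylk (log2 fold -0.97) was lost under 13 of 18 alternatives, among them without the Brca2mut/WT control (-0.87) and without Brca2mut/WT HU (-0.99), and of the 7 higher ones, that of Ppp1r14a was lost without wild-type HU (log2 fold 1.005) and on tag pools 2 and 4 alone (1.30). Acta2 itself, used by the limits, held 10.1, 13.2, 8.53 and 12.6 CPM in low-contractile basal, 3424, 4227, 6912 and 3782 CPM in contractile basal and 43.6, 51.4, 47.2 and 76.0 CPM in HR- luminal cells, where 335 cells (2.64%) had a contractile sum of at least 500 CPM.

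Many smooth muscle genes carry a CArG box, the element bound by serum response factor (Srf), near their start. RefSeq promoter windows of 300 bases (250 before to 50 after the start, GRCm38.p6) were searched for it on both strands, and it was found in 488 of the 27025 genes with a window (1.81%), and in 3 of the 25 contractile and smooth muscle genes with one (12%), namely Myl9, Srf and Myl6. They are given here with the box in capitals, because the genes were among those lower in low-contractile basal cells.
Myl9, chr2:156775293-156775322, plus strand: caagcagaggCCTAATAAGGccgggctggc
Srf, chr17:46556205-46556234, minus strand: agcggcctcgCCATAAAAGGaaacattgta
Srf, chr17:46556225-46556254, minus strand: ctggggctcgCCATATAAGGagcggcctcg
Myl6, chr10:128493040-128493069, minus strand: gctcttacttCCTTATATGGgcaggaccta
The box began 161 bases before the start in Myl9, 62 and 82 bases before it in Srf and 50 bases before it in Myl6. Srf was measured at 7.92, 7.59, 5.92 and 7.08 CPM against 9.32, 11.3, 8.50 and 13.1 CPM in contractile basal cells (log2 fold -0.62, adjusted p = 0.032), and Myl6, a myosin light chain of muscle and other cells, at 1277, 1288, 1285 and 1347 CPM against 2749, 2783, 3047 and 2767 CPM (log2 fold -1.17, adjusted p = 6.28e-10). The Srf call was lost under 10 of 18 alternatives, among them without wild-type HU (log2 fold -0.61), without the Brca2mut/WT control (-0.61), without Brca2mut/WT HU (-0.51), on either pair of tag pools (-0.69 and -0.60) and with basal cells of 1000 CPM or more of Krt8 and Krt18 left out (-0.35). A match is a description of the letters and not a measured binding site.

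Basement membrane and matrix genes were lower as well, 20 of 29 tested, with 0 higher and a median log2 fold of -1.09. Bgn, which encodes the small proteoglycan biglycan, stood at 8.03, 21.1, 5.45 and 30.9 CPM against 81.8, 202, 155 and 182 CPM (log2 fold -3.37, SE 0.27, adjusted p = 6.81e-05). Postn, which encodes the matrix protein periostin, was found at 57.7, 35.2, 81.2 and 47.4 CPM against 270.4, 422, 486 and 824 CPM (log2 fold -3.15, SE 0.38, adjusted p = 0.00194). The groups did not overlap for either gene. Set against HR- luminal cells, 20 of the same 29 genes were higher and 2 lower, with a median log2 fold of 1.72. Postn, for example, was at 2.69, 2.91, 2.00 and 4.68 CPM in HR- luminal cells (log2 fold 4.07, SE 0.41, adjusted p = 0.000136).

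Secreted signals and their modulators followed the matrix genes, with 16 of 30 tested lower and 2 higher than in contractile basal cells (median log2 fold -1.06). Cxcl14, another chemokine, was measured at 5.06, 5.82, 10.2 and 10.5 CPM against 101, 144, 149 and 171 CPM (log2 fold -4.30, SE 0.15, adjusted p = 1.6e-11). Igfbp2, which encodes an insulin-like growth factor binding protein, stood at 61.3, 65.3, 23.7 and 36.4 CPM against 619, 526, 1225 and 379 CPM (log2 fold -3.80, SE 0.53, adjusted p = 0.00361). In both genes the lowest contractile library lay above the highest low-contractile one. The 2 higher genes were Pthlh and Inhba. Pthlh, which encodes parathyroid hormone-related protein, had 21, 30, 15 and 7 UMIs against 1, 2, 0 and 1 (log2 fold 2.04, SE 0.67, adjusted p = 0.0392), and the call was lost in 4 of the 11 alternatives that could be fitted, without the Brca2mut/WT control (log2 fold 1.69), without Brca2mut/WT HU (2.23), in DESeq2 (2.07, adjusted p = 0.059) and with the library block left out (1.95). Inhba, which encodes the activin A subunit, stood at 115, 26.2, 81.2 and 30.9 CPM against 22.2, 2.94, 7.29 and 2.92 CPM (log2 fold 2.77, SE 0.21, adjusted p = 6.82e-08), and in both classes its level was lower in each HU library than in the control of that genotype. The Inhba call was lost on tag pools 1 and 3 alone (log2 fold 1.28) and with the library block left out (2.92). Wnt10a, a Wnt ligand, did not pass the test against contractile basal cells (log2 fold 0.62, adjusted p = 0.121) at 69.9, 60.0, 72.2 and 107 CPM.

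The basal genes themselves were partly lower, 10 of 22 tested, with 1 higher and a median log2 fold of -0.56. Id4, an inhibitor of helix-loop-helix transcription factors found in basal cells, stood at 325, 433, 280.0 and 215 CPM against 532, 621, 632 and 487 CPM (log2 fold -0.92, SE 0.17, adjusted p = 0.0086). Vim, the intermediate filament vimentin, was at 272, 181, 220.0 and 158 CPM against 592, 638, 775 and 661 CPM (log2 fold -1.73, SE 0.17, adjusted p = 0.000179). Trp63 was not called (log2 fold -0.30, adjusted p = 0.0982). Krt5 was the higher gene, at 2449.6, 2234, 1685 and 1886 CPM against 1163, 1555, 1108 and 802 CPM (log2 fold 0.80, SE 0.20, adjusted p = 0.0306), and its call was lost without wild-type HU (log2 fold 0.91), without Brca2mut/WT HU (0.68), with the library block left out (0.79), with keratinizing genes at 0 (0.57) and on tag pools 1 and 3 alone (0.96). Without basal cells that had 1000 CPM or more of Krt8 and Krt18, 5 of the 22 genes were lower in place of 10, and Id4 was not called (log2 fold -0.66), nor was it on tag pools 2 and 4 alone (-0.98). Genes used as stem or primitive basal markers had 5 of 19 lower (Lgr5, Dll1, Prom1, Snai1 and Cdh2) and 1 higher (Cd24a). Without Brca2mut/WT HU 2 of the 5 lower calls were left, and 1 stayed higher. The calls of Snai1, Lgr5 and Prom1 were lost under 9, 6 and 6 alternatives. Of 12 imprinted genes tested, H19 and Mest were lower and 0 higher, where the call of H19 was lost under 4 of 18 alternatives, one of them without the wild-type control (log2 fold -1.51), and Mest kept its call in the 12 in which it could be fitted.

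**Figure D3:**
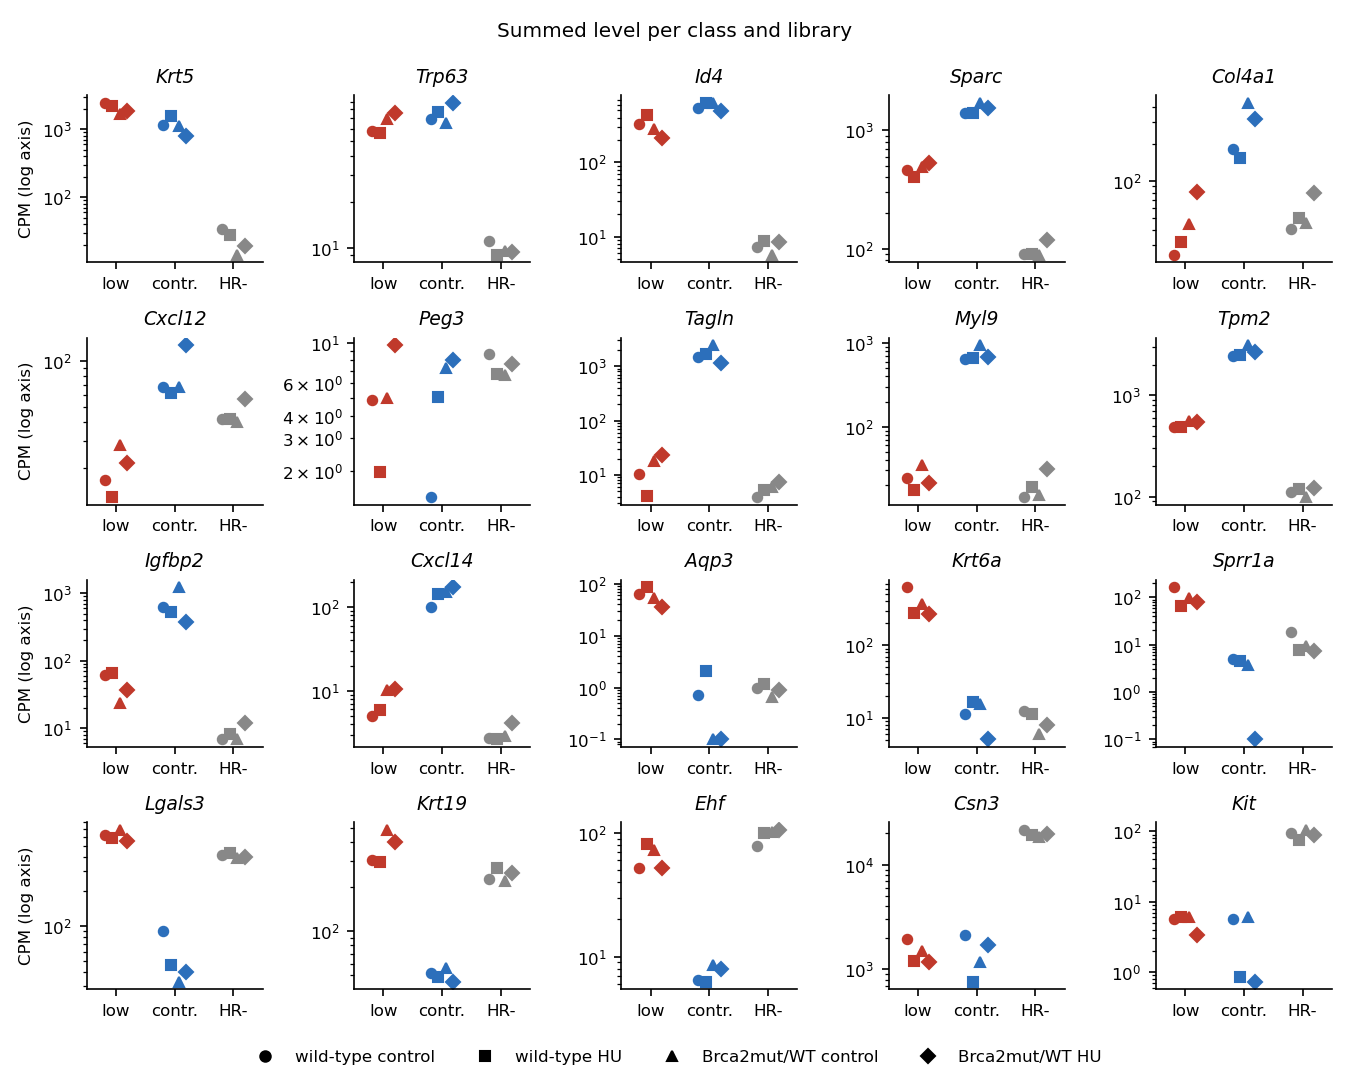
Each point is the CPM of 1 gene in 1 library, on a log axis, for low-contractile basal (low), contractile basal (contr.) and HR- luminal (HR-) cells, and values of 0 are drawn at 0.1 CPM. Tagln, Myl9 and Sparc stood lower in low-contractile than in contractile basal cells in all 4 libraries, and Aqp3, Krt6a and Lgals3 stood higher in all 4.

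The genes that were higher belonged in part to stratified and luminal epithelia. Aqp3, a water and glycerol channel of stratified epithelia, was measured at 64.3, 85.3, 53.5 and 35.9 CPM in low-contractile basal cells. The contractile basal cells held 1, 5, 0 and 0 UMIs of Aqp3, or 0.717, 2.10, 0 and 0 CPM, and the HR- luminal cells 0.961, 1.14, 0.647 and 0.888 CPM. The fitted log2 fold of 5.96 (SE 0.33, adjusted p = 5.34e-09) rests on these few UMIs and depends on the prior count of the fit. Every low-contractile library lay above every library of the other two classes. With each cell thinned to 5000 UMIs, Aqp3 was detected in 13.7, 21.1, 12.2 and 13.1% of low-contractile basal cells, in 0% of contractile basal cells and in 0.509, 0.522, 0.331 and 0.129% of HR- luminal cells. Without thinning, Aqp3 was detected in 1.64, 4.59, 0 and 0% of contractile basal cells, so absence in them is not shown. For the thinned shares, 0 of 61, 109, 38 and 58 cells allow exact upper limits of 5.87%, 3.33%, 9.25% and 6.16% on the share of cells with a UMI among 5000.

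Krt6a, a keratin of stratified and wounded epithelium, stood at 623, 278, 372 and 273 CPM against 11.5, 16.8, 15.8 and 5.11 CPM in contractile basal cells (log2 fold 4.89, SE 0.40, adjusted p = 0.000213). Sprr1a, which encodes a precursor of the cornified envelope, was found at 163, 66.1, 96.9 and 81.8 CPM against 5.02, 4.61, 3.64 and 0 CPM (log2 fold 4.76, SE 0.25, adjusted p = 1.69e-08). Both genes are near copies of Krt6b and Sprr1b, which the limits used, so the split of reads between the copies is uncertain. The groups did not overlap for either gene. Of 18 squamous genes that the limits did not use, 11 could be tested, and 6 were higher and 0 lower, with a median log2 fold of 1.51. The other higher genes were Sprr2a3, Sbsn, Calml3 and Lgals7, while Krt10, Krt1, Dsc2, Sfn and Krt17 were not called and Ivl, Lor and Flg, which mark late keratinization, were too low to test. Calml3, a calmodulin-like protein of stratified epithelium, was measured at 69.1, 133, 68.7 and 38.8 CPM against 11.5, 21.8, 13.4 and 3.65 CPM (log2 fold 2.56, SE 0.21, adjusted p = 9.24e-07). The sum of the 4 keratinizing genes used by the limits was 0 in 71.1% of low-contractile basal cells, with 30 cells between 200 and 300 CPM just inside the limit and 21 between 300 and 400 CPM just outside.

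Among the other higher genes, Lgals3, which encodes the lectin galectin-3, stood at 618, 590.1, 692 and 552 CPM against 91.1, 46.1, 32.8 and 40.1 CPM (log2 fold 3.49, SE 0.23, adjusted p = 4.1e-05). Its HR- luminal level was 418, 435, 393 and 402 CPM, and the difference from it was not called (adjusted p = 0.0667). Il33, which encodes an epithelial alarmin cytokine, was found at 92.8, 71.5, 91.4 and 49.5 CPM against 14.3, 5.45, 7.29 and 3.65 CPM (log2 fold 3.33, SE 0.30, adjusted p = 2.67e-05). Low-contractile libraries were above all contractile ones for both. Fgfbp1, which encodes a carrier of fibroblast growth factors, stood at 178, 84.4, 117 and 76.8 CPM against 8.61, 19.3, 9.72 and 0 CPM (log2 fold 3.30, adjusted p = 0.00174). Krt79, a keratin, and Stmn2, which encodes a microtubule-binding stathmin, had log2 folds of 3.91 (adjusted p = 6.9e-07) and 2.78 (adjusted p = 0.000654). Stmn2 was not called on tag pools 1 and 3 alone, at a log2 fold of 2.25. The named lower genes not described above were Rcn3 (log2 fold -4.23), Nexn (-3.85), Col14a1 (-3.83), Tspan18 (-3.23) and 1600014C10Rik (-3.03).

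Part of the HR- luminal gene list was higher in low-contractile than in contractile basal cells, 8 of 19 tested, with 0 lower and a median log2 fold of 1.21. Krt19, a luminal keratin, stood at 302, 294, 487 and 399 CPM against 51.6, 48.7, 55.9 and 45.2 CPM (log2 fold 2.81, SE 0.20, adjusted p = 2.49e-05). With basal cells of 1000 CPM or more of Krt8 and Krt18 left out, the log2 fold of Krt19 was 0.93. Thinned to 5000 UMIs, Krt19 was detected in 34.0, 28.7, 35.2 and 37.5% of low-contractile and 27.9, 23.9, 13.2 and 12.1% of contractile basal cells, so in the wild type the share of cells with Krt19 differed less than its level. Ehf, an Ets factor of luminal and other epithelia, was measured at 51.9, 82.1, 73.0 and 52.4 CPM against 6.46, 6.29, 8.50 and 8.03 CPM (log2 fold 3.17, SE 0.19, adjusted p = 7.27e-09). Elf5, the Ets factor of alveolar luminal cells, held 10.8, 18.9, 17.3 and 17.0 CPM against 7.89, 3.77, 3.64 and 4.38 CPM (log2 fold 1.67, SE 0.26, adjusted p = 0.000189). Thinned to 5000 UMIs, Elf5 was found in 5.33, 5.60, 4.59 and 5% of low-contractile and 6.56, 5.50, 2.63 and 0% of contractile cells. In the wild type the share of cells with Elf5 was thus not clearly higher. Along Krt14, Elf5 read 38.9 CPM in the low-contractile cells with 500 to 1000 CPM, 17.3 CPM in those with 1000 to 5000 and 7.62 CPM in those with at least 5000, the last of which lay near the 4.66 and 4.96 CPM of the 2 contractile bands (500 to 2000 and 2000 CPM and over). For all 3 genes the 2 basal classes did not overlap. Cd14, Epcam, Cldn3, Cldn4 and Cd24a were the other 5 called. Without wild-type HU 6 genes of the list were called higher, and likewise 6 (with 1 lower) when basal cells with 1000 CPM or more of Krt8 and Krt18 were left out, where Elf5 (log2 fold 0.71) and Cd14 (0.13) were not called.

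The abundant luminal products were not called. Csn3, the milk protein kappa-casein, stood at 1952, 1213, 1493 and 1173 CPM in low-contractile and 2152, 765, 1167 and 1709 CPM in contractile basal cells (log2 fold 0.01, adjusted p = 0.987), against 21649.5, 19194, 18389 and 19785 CPM in HR- luminal cells. Lalba, the milk protein alpha-lactalbumin, was at 16.9, 12.2, 10.9 and 31.2 CPM against 24.4, 9.23, 3.64 and 6.57 CPM (adjusted p = 0.585). Kit, a receptor of HR- luminal progenitors, was at 5.61, 6.11, 6.16 and 3.41 CPM against 5.74, 0.839, 6.07 and 0.730 CPM (adjusted p = 0.157), and 93.9, 75.7, 106 and 88.8 CPM in HR- luminal cells. Thinned to 5000 UMIs, Kit was detected in 1.78, 1.72, 2.04 and 0.625% of low-contractile basal cells. In droplet data such counts include free RNA of the HR- luminal cells, which were 72.0%, 68.4%, 78.0% and 74.9% of the cells within the limits on genes and mitochondrial UMIs, and its part was not tested.

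Cell cycle genes that the limits did not use were partly higher, 8 of 16 tested, with 0 lower and a median log2 fold of 0.80. The 8 were Pcna, Mcm2, Mcm3, Mcm5, Mcm6, Rrm2, Hells and Hmgb2, while Mki67, Top2a, Cdk1, Ccna2, Ccne2, Tyms, Clspn and Ube2c were not called. Cells with high levels of 4 mitotic genes had been taken out of both basal classes. Mcm5, a subunit of the replicative helicase, stood at 11.2, 18.4, 11.4 and 15.99 CPM against 2.87, 6.29, 1.21 and 0.730 CPM (log2 fold 2.04, SE 0.34, adjusted p = 0.000339). Pcna, the sliding clamp of DNA polymerase, was measured at 56.8, 68.1, 57.3 and 69.2 CPM against 38.0, 39.4, 32.8 and 43.1 CPM (log2 fold 0.65, SE 0.11, adjusted p = 0.000293). The groups did not overlap for either gene. Without Brca2mut/WT HU 5 of the genes were called higher, and Hmgb2 (log2 fold 0.50), Mcm3 (1.02) and Rrm2 (0.91) were not. These 3 calls were lost under 5, 5 and 4 of 18 alternatives, and that of Mcm5 on tag pools 2 and 4 alone (1.46). Of 14 p53 targets, 0 were called by edgeR and 0 by DESeq2, with 3 at an unadjusted p under 0.05 (31.8% of all genes), of which Perp (log2 fold 0.52, adjusted p = 3.5e-05) and Btg2 (-0.48, adjusted p = 0.000647) were under the fold limit. Without the wild-type control 1 p53 target was called higher. The interferon list had 0 higher and 1 lower of 14, and the dissociation response list 1 higher and 1 lower of 16. Of all genes tested, 4.90% were higher and 7.23% lower, so the counts of these last 2 lists were near the background.

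Markers of non-epithelial cells were low. The immune list summed to 3.96, 3.25, 5.92 and 2.10 CPM, with Cd68 as its most abundant gene and Ptprc, which marks leukocytes, at 0 in all 4 libraries. The endothelial and pericyte list summed to 22.4, 23.8, 19.7 and 19.1 CPM, nearly all from Notch3, a receptor also found in luminal cells (22.2, 23.4, 24.1 and 22.2 CPM in HR- luminal cells), with Cdh5, Kdr and Cldn5 at 0. The fibroblast list summed to 94.9, 137, 75.6 and 99.3 CPM, most of it from Gsn, with Col3a1, Lum and Dpt at 0. Of its 7 tested genes, 5 were lower than in contractile basal cells, Col1a2 among them at 0.990, 1.08, 0.947 and 1.31 CPM against 7.17, 16.4, 41.3 and 12.4 CPM (log2 fold -3.97, SE 0.47, adjusted p = 1.37e-05). Hormone receptor-positive luminal genes were higher in 4 of 12 (Prlr, Foxa1, Cited1 and Ly6a) and lower in 1 (Prom1), of which Prlr was lost without the wild-type control (log2 fold 2.71) or Brca2mut/WT HU (2.37), Cited1 without wild-type HU (2.58), and Prom1 without either HU library (-0.85 and -0.61), and each of these 3 calls was lost under 6 alternatives in all. Schwann and neural crest genes had 1 higher and 1 lower of 6, and Notch and Hippo genes 1 higher, Notch3 itself, and 2 lower of 14. Nothing is read from such small counts, beside 4.90% higher and 7.23% lower over all genes tested.

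Set against HR- luminal cells, 2304 of 12249 genes were higher (18.8%) and 2250 lower (18.4%), with 4554 called in all (37.2%). Scaled to library totals alone, 61.4% of the calls were higher, against 50.6% with TMM scaling, and the median log2 fold of all genes was 0.16. Basal genes were higher in 17 of 22 and lower in 1, with a median log2 fold of 2.51. The genes named as highest by fold were Wnt10a, Krt5, Dmkn, Foxq1 and Dsg3. Wnt10a stood at 69.9, 60.0, 72.2 and 107 CPM against 0.612, 0.597, 0.343 and 0.658 CPM (log2 fold 6.95, SE 0.26, adjusted p = 1.68e-08). Dsg3, a desmosomal cadherin of stratified epithelium, was measured at 98.2, 101, 60.4 and 64.7 CPM against 1.54, 1.32, 0.685 and 0.735 CPM (log2 fold 6.098, SE 0.13, adjusted p = 6.1e-16), and was also higher than in contractile basal cells (16.5, 28.9, 10.9 and 12.4 CPM). All low-contractile libraries were above all HR- luminal ones for both genes, as they were for 4551 of the 12249 genes tested (37.2%). Dmkn, which encodes the keratinocyte product dermokine, and Foxq1, a forkhead factor, had log2 folds of 6.27 and 6.12.

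The lowest by fold were Lalba (log2 fold -4.99), the acute phase genes Saa2 (-4.77) and Saa1 (-4.23), Scgb2b27 (-4.63) and 4930469K13Rik (-4.25). Saa1 and Saa2 are near copies, so the split of reads between them is uncertain. Lalba held 359.8, 586, 340.2 and 671 CPM in HR- luminal cells and 16.9, 12.2, 10.9 and 31.2 CPM here (log2 fold -4.99, SE 0.33, adjusted p = 1.1e-05). With basal cells of 1000 CPM or more of Krt8 and Krt18 left out, Krt19 stood below HR- luminal cells (log2 fold -1.65). In the HR- luminal list, 15 of 19 genes were lower and 3 higher (Krt7, Cldn4 and Cd24a). Interferon genes were lower in 13 of 14 and higher in 0, with a median log2 fold of -1.40. Ifit3, an interferon-induced antiviral gene, was measured at 35.7, 18.4, 41.0 and 51.9 CPM against 253, 233, 360.4 and 342 CPM (log2 fold -3.22, SE 0.13, adjusted p = 3.58e-09), and at 32.3, 20.6, 43.7 and 49.6 CPM in contractile basal cells, from which it was not called different (adjusted p = 0.907). Both basal classes thus lay below every HR- luminal library for Ifit3. Over all genes tested, 22.1% had every low-contractile library below every HR- luminal one. Immediate early genes of the dissociation list were lower in 10 of 16 and higher in 1.

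Basal cells were then set in order of their contractile sum, at 0 (1085 cells), above 0 and under 200 (222), 200 to 500 (49), 500 to 2000 (100) and 2000 CPM and over (172). Values in these bands are over cells of all libraries and are a description with no test. Sparc read 437, 529.8, 934, 1096 and 1687 CPM along the bands. Lgals3 ran the other way, at 647, 453, 95.2, 77.9 and 39.7 CPM, with its drop between the cells under 200 and those of 200 to 500 CPM. Krt6a went from 429 CPM in the first band to 93.1 in the middle and 11.8 CPM in the last, and Aqp3 from 69.4 to 15.5 and 1.05 CPM. The 49 cells between both limits thus lay between both classes for all 4 genes. Trp63 showed little trend, at 61.9, 60.8, 79.7, 73.7 and 77.6 CPM.

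**Figure D4:**
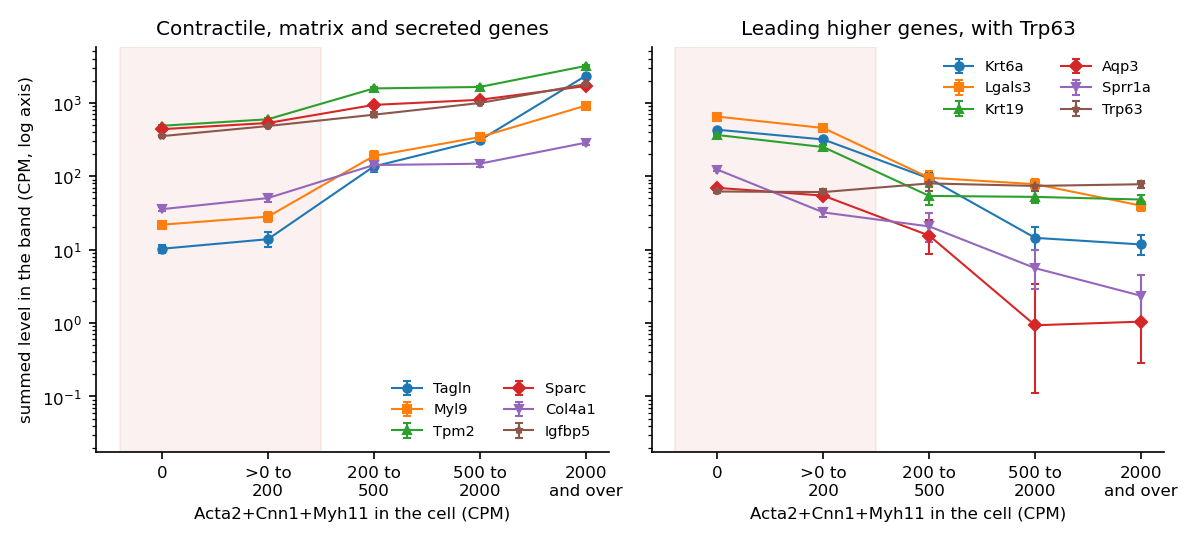
Each line gives the CPM of 1 gene over basal cells of all 4 libraries, in 5 bands of the summed CPM of Acta2, Cnn1 and Myh11, with Poisson 95% intervals that cover counting error only, and the shaded bands are the low-contractile basal cells. Sparc and Tagln were highest in the last band, 1687 and 2316 CPM, while Lgals3, Krt6a and Aqp3 were highest at a sum of 0.

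The low-contractile basal cells were themselves mixed along Krt14. In the 262 cells with 500 to 1000, the 465 with 1000 to 5000 and the 580 with at least 5000 CPM of Krt14, Krt5 stood at 399, 1125 and 3397 CPM. Krt6a was at 123, 85.8 and 704 CPM and Aqp3 at 9.49, 20.5 and 114 CPM, both highest in the last band. Krt14 itself differed between tag pools, as given below, and the bands were not split by pool. The luminal keratins went the other way, with Krt8 at 1048, 614 and 419 CPM and Krt19 at 887, 442 and 109.8 CPM. Csn3 followed them at 3418, 1611 and 841 CPM. The 81 cells with 500 to 600 CPM of Krt14 had a median Krt8 and Krt18 sum of 2002 CPM, against 2680.1 CPM in the 105 cells just outside. Sparc differed little between these bands, at 456, 507 and 419.5 CPM.

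Antibody tags split each library into 4 pools with no key, and low-contractile basal cells were spread unevenly over them. They made up 4.05%, 9.71%, 4.44% and 22.9% of pools 1 to 4 in the wild-type control and 4.75%, 22.0%, 3.92% and 17.5% in wild-type HU. In Brca2mut/WT the shares were 3.86%, 0%, 6.61% and 11.4% in the control and 5.19%, 0.422%, 5.96% and 11.5% in HU. The 0 of 755 cells in pool 2 of the Brca2mut/WT control and 2 of 474 in pool 2 of Brca2mut/WT HU stood apart from the rest. Pool 2 gave 263 of the 488 low-contractile basal cells in wild-type HU but 37 of 435 in the wild-type control, so the makeup by pool differed between the libraries.

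The 14 pools with at least 20 low-contractile basal cells differed in gene levels too. The median Krt14 of these cells was 1067 to 2515 CPM in pools 1 and 3 and 3502 to 8716 CPM in pools 2 and 4. Cxcl12 lay between 22.0 and 49.4 CPM in pools 1 and 3 and between 0 and 32.3 CPM in pools 2 and 4. The bands of Krt14 were thus not independent of the pools. Krt6a lay between 60.8 and 176 CPM in pools 1 and 3 and between 286 and 908 CPM in pools 2 and 4. Aqp3 lay between 15.7 and 46.3 CPM in pools 1 and 3 and between 45.6 and 127 CPM in pools 2 and 4. Il33 ranged from 5.01 to 74.5 and from 53.8 to 184 CPM, so that the pools overlapped. Csn3 was higher in pools 1 and 3, at 913 to 3027 CPM against 524 to 1283 CPM, and Sparc was at 408 to 675 against 265 to 492 CPM. What the pools were cannot be told from the labels, and no mean or test was taken over them. Refitted on pools 1 and 3 alone, the comparison with contractile basal cells gave 316 higher genes in place of 600, of which 211 were among the 600.

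**Figure D5:**
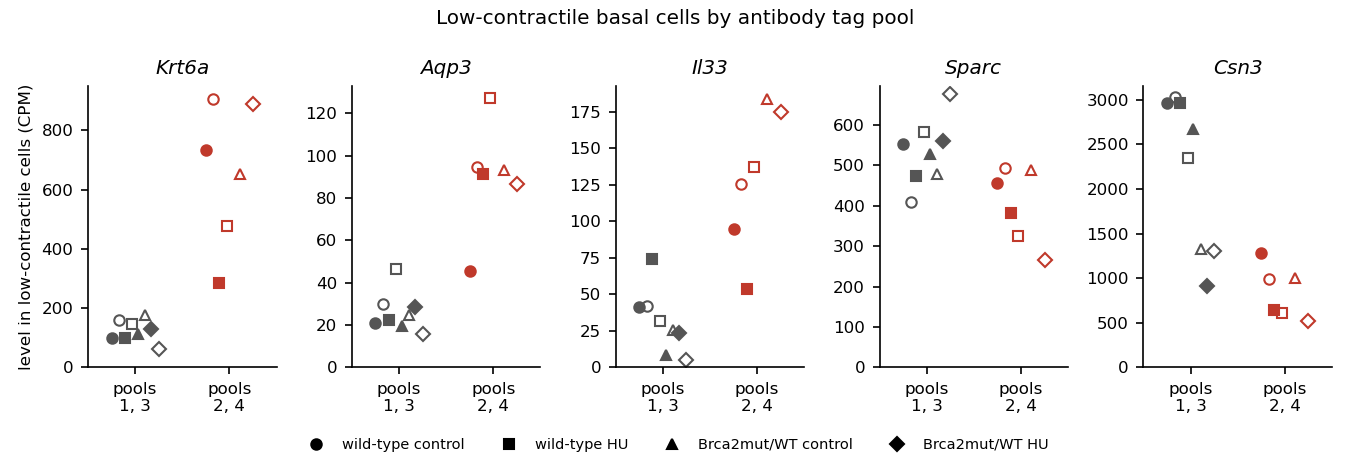
Each point is 1 tag pool of 1 library with at least 20 low-contractile basal cells (14 pools), and the axis gives the CPM of a gene in those cells, with filled symbols for pools 1 and 2 and open symbols for pools 3 and 4. Krt6a reached at most 176 CPM in pools 1 and 3 and at least 286 CPM in pools 2 and 4.

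Differences between conditions are given by their size with no test, since each condition was 1 library and the pools above were mixed differently. Ratios between libraries are log2 ratios of CPM + 1, over genes with at least 20 CPM in 1 of the 2 libraries. Between wild-type HU and its control, 83 of 5850 genes differed at least 2-fold in low-contractile basal cells (1.42%), and between the Brca2mut/WT libraries 45 of 5877 (0.766%). Inhba was lower in HU in both genotypes, at 26.2 against 115 CPM in the wild type (log2 ratio -2.09) and 30.9 against 81.2 CPM in Brca2mut/WT (-1.37). Bgn was higher in HU in both, with log2 ratios of 1.29 and 2.31. Krt15, a basal keratin, was higher in wild-type HU, 280.4 against 119.6 CPM, and in Brca2mut/WT the values were 147 and 109.7 CPM. Krt6a was lower in wild-type HU, 278 against 623 CPM, and by tag pool of the wild type it read 98.7 against 98.9 CPM in pool 1, 286 against 735 in pool 2, 146 against 161 in pool 3 and 476 against 908 in pool 4. In the wild type Krt6a was thus lower in HU in pools 2 and 4 and close to the control library in pools 1 and 3. In Brca2mut/WT it read 132 against 114 CPM in pool 1, 60.8 against 176 in pool 3 and 890 against 654 in pool 4. Without a key, pools of separate libraries that share a tag number are not known to hold matched samples.

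Between genotypes, 32 of 5797 genes differed at least 2-fold in the controls (0.552%) and 126 of 5912 in HU (2.13%). The comparisons share libraries with those of HU and are not independent of them. In the controls Fn1, the matrix protein fibronectin, and Igfbp2 were lower in Brca2mut/WT, with log2 ratios of -1.87 and -1.34. In HU, Col4a1 stood at 80.7 CPM in Brca2mut/WT and 31.8 CPM in the wild type (log2 ratio 1.32), and Igfbp5 at 592 and 272 CPM (1.12). By tag pool, in the same order, Col4a1 read 47.5 and 77.1 CPM in pool 1, 136 and 88.5 in pool 3 and 56.3 and 23.7 in pool 4. Pool 2 held 263 of these cells in wild-type HU, at 16.5 CPM of Col4a1, and 2 in Brca2mut/WT HU. Vegfa, the vascular growth factor, was at 149 and 68.6 CPM (1.10), and Ifit3 at 51.9 and 18.4 CPM (1.44). Id4 went the other way, at 215 and 433 CPM (-1.003), as did the immediate early gene Fos, at 288 and 638 CPM (-1.14). Of the basal list, Id4 was the 1 gene of 22 past 2-fold in that pair, and 0 of the p53 targets passed it in any of the 4 pairs.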

How the data were processed

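The authors sequenced 4 droplet single-cell libraries (10x Chromium, kit version 3) and deposited UMI counts per cell for 32285 genes and 4 antibody tags, aligned to mm10 with Cell Ranger 6.0.2 according to their processing notes, while the headers of the deposited count files name Cell Ranger 6.1.1. The counts are whole numbers without normalization. The files held 33268 cell barcodes, of which 17360 were within the gene and mitochondrial limits taken from the study, and the study states more cells after its filter than the files hold in all. Tag counts were left out of gene totals. No doublet caller was run, and droplets that held more than 1 cell were not removed. A cell had 1 tag if its top tag, after division by the median of the library, was at least 3 times the second, and cells with 1 tag were used in an alternative.

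The cells, the gene lists and the comparisons were chosen with earlier results of these data known. Counts were summed per class and library (12 sums) and fitted in edgeR 4.0.16 (R 4.3.3) with the quasi-likelihood test, TMM scaling, its default filter on low counts, and the library as a block, because the 3 classes of a library came from the same droplets. P-values were adjusted over 12275 genes by Benjamini-Hochberg, and calls counted over the 12249 left after removing the genes used to choose the cells and mitochondrial genes. Genes called at an adjusted p under 0.05 and a fold of at least 1.5 were named if they were in a fixed list, or among the 12 higher and 12 lower by fold against contractile basal cells or the 5 higher and 5 lower against HR- luminal cells, with at least 50 CPM in 1 class and the same sign in all 4 libraries. A gene that met this rule is not reported here. The 5 list genes given under an older symbol were matched by RefSeq synonyms (Mrtfa, Mrtfb, Ccn1, Ccn2 and Ccn3). The fit was also run on simulated data, the outcome of which is not reported here. Levels are CPM of summed UMIs with exact Poisson intervals, and shares have exact Clopper-Pearson 95% intervals (Python 3.11.15, scipy 1.17.1). The exact permutation test of the share over libraries was added after the data were seen. Alternatives were DESeq2 1.42.0, other scaling, filters, blocks and cell limits, each library left out, thinning to 5000 UMIs, and choosing cells and measuring genes on separate random parts of the UMIs. Gene coordinates are GRCm38, and promoter sequences come from RefSeq (GRCm38.p6).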

Additional observations from a re-analysis of the deposited data

Results flagged for a closer look

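In low-contractile basal cells, 23 of 339 listed or named genes moved in opposite directions under HU in the 2 genotypes, with separate Poisson intervals in both. All 23 were among the 277 of them tested (8.3%), and over all 12249 genes tested 125 did so (1.02%). Restricted to genes that reached 20 CPM in any of the 4 libraries, the counts were 22 of 190 (11.6%) and 120 of 6140 (1.95%). Because the lists were chosen with results known, nothing is read from the difference. Of the 23, 15 were higher in wild-type HU than in its control and lower in Brca2mut/WT HU, and 8 went the other way. Values in parentheses are log2 ratios of HU against control, first in the wild type and then in Brca2mut/WT. The immediate early and stress genes that went up in the wild type and down in Brca2mut/WT were Fos (0.73 and -0.69), Fosb (0.53 and -0.86), Jun (0.57 and -0.66), Atf3 (1.09 and -1.05) and Hspa1b (0.37 and -0.74). Luminal genes with the same pattern were Krt8 (0.21 and -0.56), Krt18 (0.14 and -0.42), Cldn3 (0.20 and -0.36), Ehf (0.65 and -0.47), Cited1 (1.62 and -2.91) and Wfdc18 (0.24 and -0.95). It was also found for the water and glycerol channel gene Aqp3 (0.40 and -0.56), for the squamous gene Calml3 (0.93 and -0.81), and for the transcriptional regulators Hes1 (0.36 and -0.28) and Id4 (0.41 and -0.38). The opposite pattern was found for the matrix and secreted protein genes Agrn (-0.31 and 0.30), Fn1 (-1.98 and 0.82), Sparcl1 (-1.15 and 0.82), Igfbp5 (-0.34 and 0.24) and Igfbp7 (-0.55 and 0.39), for the basal keratin Krt5 (-0.13 and 0.16), for Sox10 (-0.35 and 0.55), which stood higher in HR- luminal cells, and for the interferon-induced Ifit1 (-0.53 and 0.40). Each ratio compares 1 library with 1 library, so the difference between genotypes was not tested. The intervals cover counting error only, and the tag pools made up different shares of the cells in each library, the part of which in these ratios was not tested. Krt18, for example, differed by pool. In wild-type HU against control it read 1985 against 1115 CPM in pool 1, 508 against 921 in pool 2, 745 against 883 in pool 3 and 479 against 376 in pool 4. In Brca2mut/WT it read 823 against 794 in pool 1, 704 against 1536 in pool 3 and 650 against 659 in pool 4.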

How the results depend on the processing

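Counts of called genes kept within 1.5 times of the reported value under every alternative run but 1: on tag pools 1 and 3 alone, an alternative chosen after seeing the data, 316 genes were higher than in contractile basal cells in place of 600. Leaving out each library in turn gave 450 to 557 higher and 751 to 821 lower genes against contractile basal cells, and 2099 to 2400 higher and 2084 to 2431 lower genes against HR- luminal cells. The genes themselves changed more than these counts. Against contractile basal cells, 371 to 474 of the 600 higher and 673 to 751 of the 886 lower genes were called again, fewest without wild-type HU. On tag pools 2 and 4 alone, 347 and 558 of them were called again. DESeq2 called 588 higher and 956 lower against contractile basal cells. When cells were chosen and genes measured on separate parts of the UMIs, 406 higher and 688 lower genes were called, of which 327 and 621 were among the reported ones. The block pairs the classes of 1 library, which came from the same droplets. With the block left out, 543 genes were higher and 838 lower against contractile basal cells and 2316 and 2244 against HR- luminal cells.

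The share of low-contractile cells among basal cells moved beyond its interval in both HU libraries: thinned to 5000 UMIs it was 75.04% in the wild type and 63.2% in Brca2mut/WT, and among basal cells with under 1000 CPM of Krt8 and Krt18 it was 73.1% and 61.2%. Among listed or named genes called in the reported fit or under the alternative, 7 changed sign. Against contractile basal cells, Wnt6 had a log2 fold of 0.0791 on tag pools 1 and 3. Against HR- luminal cells, Wnt5a (-0.0878) and Prom1 (0.74) turned on these pools, Ckb (-1.96) on pools 2 and 4, and Fn1 (-0.0946), Krt19 (-1.65) and Foxa1 (-0.20) among basal cells with under 1000 CPM of Krt8 and Krt18. Uncalled genes changed sign too, such as Peg3 against contractile basal cells (-1.02 to 0.49) and Col4a2 against HR- luminal cells (-0.43 to 0.36). The causes were not tested. The 4 settings based on tag pools, keratinizing genes at 0 and HR- luminal cells with low contractile genes were all chosen after seeing the data. The contractile class held 38 to 112 cells per library, which limits the precision of its low genes.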
